A study of Mus musculus with 6 samples.

Results

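The 10 planar cell polarity (PCP) genes *Vangl1*, *Vangl2*, *Celsr1*, *Celsr2*, *Celsr3*, *Prickle1*, *Prickle2*, *Cfap126*, *Ror2* and *Ptk7* were followed in neonatal mouse islet cells that were or were not marked by a trace of past *Wnt4* expression. They were chosen by name, and every probe whose RefSeq transcript maps to 1 of them was taken. All 10 were measured, by 19 of the 56605 probes, among 45616 genes and transcripts on the array, of which 22908 carried a gene symbol.

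PCP is the alignment of cells within the plane of a tissue. In its core, the transmembrane proteins VANGL and CELSR and the cytoplasmic PRICKLE proteins form complexes at cell junctions that sit opposite to complexes of Frizzled and Dishevelled, with CELSR present on both sides. Non-canonical WNT ligands can act on the pathway through the receptor tyrosine kinase ROR2 and the pseudokinase PTK7, and ROCK and JNK kinases act downstream on the cytoskeleton. CFAP126, also called Flattop, is a PCP effector that takes part in positioning basal bodies and marks a subset of β-cells.

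Islets of pups at postnatal day 1 (P1) carried *Wnt4eGFPCre* and *mTmG*, so that a cell that had expressed *Wnt4* was marked by membrane GFP for good. Cells were sorted into mGFP+ (*Wnt4*hi, labelled GFPpositive) and mGFP− (*Wnt4*low, labelled GFPnegative) cells of the same genotype, from mice crossed to C57BL/6J, with no treatment. A supplementary caption of the study instead writes the second group as negative for the *Wnt4eGFPCre* transgene. Each sample was a pool of the islets of 3 or 4 pups and was hybridised to 1 array of 1 color, with 3 arrays per population on 1 slide. The labels number the *Wnt4*hi samples as replicates 2, 3 and 4. The *Wnt4*low samples are replicates 1, 3 and 4. The sort followed a trace of past *Wnt4* expression and no marker of β-cells, so each population could hold any islet cell type.

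All values are log2 intensities after background correction and quantile normalization, and a fold change is *Wnt4*hi minus *Wnt4*low on the log2 scale. Levels of different probes cannot be compared. limma was fitted over all probes, and a probe was called at an adjusted p under 0.05 or, beside it, at the unadjusted 0.05 that the study used. "Rose" and "fell" are written of probes that passed the unadjusted threshold. Where a gene had several probes, the brightest one, judged by its mean intensity across arrays, stands for it in counts.

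Markers of several cell types differed between the populations. The summed intensity of 15 endothelial markers was 6419 to 9025 on the *Wnt4*hi arrays and 45308 to 93793 on the *Wnt4*low arrays, and all 15 lay below 0 with a median log2 fold change of −3.58. On the *Wnt4*hi arrays 10 of the 15, *Pecam1*, *Cdh5* and *Kdr* among them, were still well above background on all 3, and 2 (*Tie1* and *Tek*) on 0 of 3. Of 11 mesenchymal and pericyte markers 6 fell, with sums of 42065 to 73122 against 88897 to 115826, and 5 of 10 macrophage and leukocyte markers fell. Of 10 β-cell markers 6 rose (sums 327925 to 336473 against 190303 to 292784), and 3 of 6 α-cell markers rose. Of 3 δ-cell markers 2 fell and 1 rose. Of 7 Schwann markers 2 fell, of 9 acinar markers 1 fell and 1 rose, and of 7 ductal markers 1 fell. Over all named genes 7.67% fell and 5.50% rose. Fewer cells of a type and less RNA per cell cannot be told apart in such pooled samples, and the part of these differences in the values below was not tested. Between 70.5% and 79.5% of spots were well above background per array, and precision is limited by having 3 arrays per population.

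*Wnt4* itself, the ligand that defines the populations, was higher in *Wnt4*hi cells, at 11.20, 10.53 and 10.77 on the *Wnt4*hi arrays against 9.85, 10.10 and 9.31 on the *Wnt4*low arrays, in the order of the replicate numbers, which holds for all values below. The populations did not overlap, and *Wnt4* rose by 1.08 (SE 0.27, unadjusted p = 0.00726, adjusted p = 0.204, limma). Its probe was well above background on all 6 arrays. *Wnt4*low cells are those the trace did not mark, and which cells of these pools gave the *Wnt4* signal cannot be told.

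The PCP genes did not move as a group. Of the 10, 5 lay above 0 and 5 below, with a median log2 fold change of 0.02, where all named genes had a median of 0.06 and 60.4% above 0. At the adjusted threshold 1 gene was called, *Vangl1*, which was lower in *Wnt4*hi cells, against 0.677% of named genes in either direction and 0.629% lower. At the unadjusted threshold 3 were called, against 13.2% of named genes: *Celsr2* and *Celsr3* rose (5.50% of named genes did) and *Vangl1* fell (7.67% did). Those 3 were also the genes whose populations did not overlap, which 18.4% of named genes did not. With all 19 probes taken apart, 1 passed the adjusted threshold (0.477% of probes), 6 the unadjusted one (11.0%), and 6 did not overlap (16.4%). Apart from *Vangl1*, all members were well above background on all 6 arrays by the probe that stands for them, so that low signal limited 1 gene only.

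**Figure D1:**
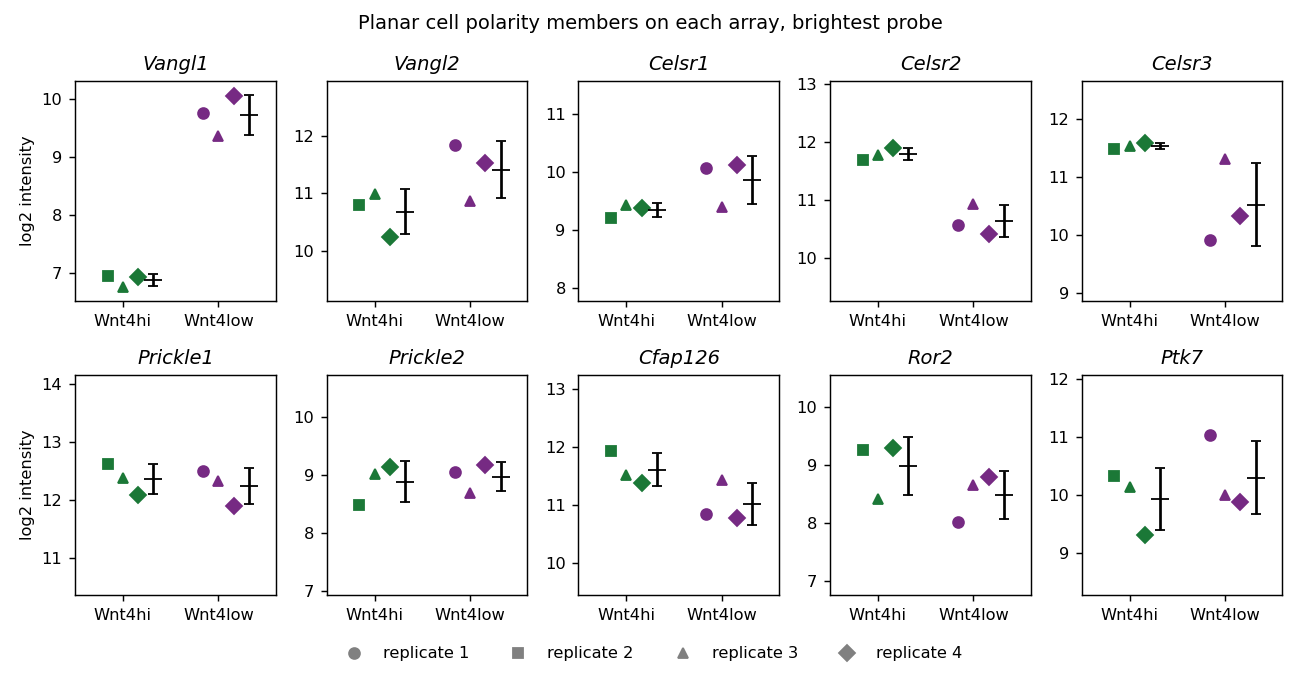
Log2 intensity (y axis) of the brightest probe of each of the 10 genes on the 6 arrays, *Wnt4*hi in green and *Wnt4*low in purple, with the symbol giving the replicate number and black bars the mean ± SD (n = 3). Every panel spans the same range. *Vangl1*, *Celsr2* and *Celsr3* are the 3 genes whose populations do not overlap.

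*Vangl1* encodes one of the pair of VANGL transmembrane proteins of the core complex. It lay at 6.94, 6.76 and 6.93 on the *Wnt4*hi arrays and at 9.75, 9.36 and 10.05 on the *Wnt4*low arrays. No *Wnt4*hi array came near a *Wnt4*low array. The measured means were 6.88 ± 0.10 and 9.72 ± 0.35 (SD, n = 3 each), a fitted log2 fold change of −2.84 (SE 0.21, unadjusted p = 7.39e-06, adjusted p = 0.0214, limma). The probe was well above background on 0 of 3 *Wnt4*hi and on 3 of 3 *Wnt4*low arrays, so only a bound can be given: the *Vangl1* level of *Wnt4*hi cells was lower, at least 5.24-fold. For this bound each *Wnt4*hi array entered with the dimmest signal that still counted as well above background there, or with the probe's own where that was higher.

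The other *Vangl1* probe gave the same direction. It lay at 6.38, 6.80 and 7.06 on the *Wnt4*hi arrays, none well above background, and at 7.69, 8.91 and 8.50 on the *Wnt4*low arrays, all well above background. Its populations did not overlap either, and it fell by 1.62 (SE 0.35, unadjusted p = 0.00352, adjusted p = 0.150), at least 2.05-fold. The brighter probe passed the unadjusted threshold in 19 of 19 other settings, where its log2 fold change ran from −3.72 to −2.23. Its adjusted call was kept in 12 of 19 and was lost when any of the 6 arrays was left out (adjusted p from 0.0554, when *Wnt4*low replicate 3 was dropped, to 0.113, when *Wnt4*hi replicate 3 was) and in the fit blocked on replicate number (log2 fold change −2.86, adjusted p = 0.0876). In these fits 0 to 3 of all probes passed the adjusted threshold. The blocked fit rests only on arrays whose replicate number occurs in both populations.

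*Vangl2*, the paralog best known from neural tube closure, had 1 probe. It lay at 10.80, 11.00 and 10.25 on the *Wnt4*hi arrays and at 11.83, 10.87 and 11.53 on the *Wnt4*low arrays. *Wnt4*low replicate 3 lay below *Wnt4*hi replicate 3, so the populations overlapped. The log2 fold change was −0.73 (SE 0.31, unadjusted p = 0.0596, adjusted p = 0.485, limma), and 2 of 19 other settings took it past the unadjusted threshold, among them without *Wnt4*low replicate 3 (−0.995, unadjusted p = 0.0157). No upstream window was available for *Vangl1*. The stretch upstream of the *Vangl2* start is printed here as that of the VANGL gene with signal on every array. It holds 227 bases of GRCm38.p6 (chr1:172027319-172027545, minus strand, RefSeq) that end before the annotated gene, and 17 CpG dinucleotides, in capitals:

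Vangl2: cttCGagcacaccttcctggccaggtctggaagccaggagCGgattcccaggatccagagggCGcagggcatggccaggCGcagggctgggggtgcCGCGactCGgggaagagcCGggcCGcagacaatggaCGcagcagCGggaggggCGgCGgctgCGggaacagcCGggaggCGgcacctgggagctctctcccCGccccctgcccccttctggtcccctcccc

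The CELSR genes encode atypical cadherins that bind each other across cell borders. *Celsr1* had 1 probe, at 9.21, 9.43 and 9.37 on the *Wnt4*hi arrays and at 10.06, 9.39 and 10.12 on the *Wnt4*low arrays. The populations overlapped, since *Wnt4*low replicate 3 lay among the *Wnt4*hi arrays. The log2 fold change was −0.52 (SE 0.23, unadjusted p = 0.0636, adjusted p = 0.497, limma), and 3 of 19 other settings passed the unadjusted threshold, among them without *Wnt4*low replicate 3 (−0.75, unadjusted p = 0.00486).

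*Celsr2* was higher in *Wnt4*hi cells by its brightest probe, which the files list under NM_017392. The *Wnt4*hi arrays lay at 11.69, 11.77 and 11.90 and the *Wnt4*low arrays at 10.57, 10.93 and 10.40. The populations did not overlap. The means were 11.78 ± 0.11 and 10.63 ± 0.27 (SD, n = 3 each), so that *Celsr2* rose 2.22-fold, a log2 fold change of 1.15 (SE 0.18, unadjusted p = 6.38e-04, adjusted p = 0.0713, limma). The other probes, both listed under NM_001004177, had log2 fold changes of −0.06 (unadjusted p = 0.780) and 0.08 (unadjusted p = 0.641), and their populations overlapped. Signal did not limit any of the 3, all of which cleared background on every array, and yet they disagreed. The brightest probe passed the unadjusted threshold in 18 of 19 other settings, and the mean of the 3 probes did not (0.39, unadjusted p = 0.0505).

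*Celsr3*, which is known for its part in axon guidance, lay at 11.50, 11.54 and 11.60 on the *Wnt4*hi arrays and at 9.92, 11.32 and 10.34 on the *Wnt4*low arrays by its brightest probe. The *Wnt4*hi arrays were nearly equal while the *Wnt4*low arrays spread widely, with replicate 3 just under the *Wnt4*hi arrays. It rose 2.03-fold, a log2 fold change of 1.02 (SE 0.36, unadjusted p = 0.0278, adjusted p = 0.359, limma). The other probes had log2 fold changes of 0.58 (unadjusted p = 0.0699) and 0.43 (unadjusted p = 0.201), both with overlap. The unadjusted call was kept in 12 of 19 other settings. It was lost in 5 of the 6 that leave out an array, with log2 fold changes of 1.04, 1.02 and 0.99 without *Wnt4*hi replicate 2, 3 or 4, 0.72 without *Wnt4*low replicate 1 and 0.93 without *Wnt4*low replicate 4, and was kept without *Wnt4*low replicate 3 (1.42). It was also lost in the fit blocked on replicate number (0.74, unadjusted p = 0.0850). In the authors' normalized values *Celsr3* did not pass either (0.50, unadjusted p = 0.149). A gene was read there by its first probe by name, which need not be the brightest. In that table the column named for *Wnt4*hi replicate 2 did not follow its own array (r = 0.280 over deviations of 32689 probes, against 0.292 with another array), so it may hold another array, and its values here and below carry that doubt.

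The stretch upstream of *Celsr3* is shown for the set as that of a member that rose, 228 bases of GRCm38.p6 (chr9:108825795-108826022, plus strand, RefSeq) that end before the annotated gene, with its 15 CpG dinucleotides in capitals:

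Celsr3: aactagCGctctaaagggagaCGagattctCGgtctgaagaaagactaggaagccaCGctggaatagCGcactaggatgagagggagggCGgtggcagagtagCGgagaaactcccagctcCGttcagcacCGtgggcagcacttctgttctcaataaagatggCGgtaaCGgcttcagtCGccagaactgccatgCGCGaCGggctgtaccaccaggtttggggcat

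Counted over the 250 bases before the RefSeq start, the *Celsr3* window held 17 CpG dinucleotides at 58.0% GC and the *Vangl2* window 18 at 73.6%. The median of 32851 such windows over all genes was 6. Of these windows 76.5% held fewer than the *Celsr3* window and 78.3% fewer than the *Vangl2* window. Of the members 8 had such a window, all but *Vangl1* and *Celsr1*. They had 14 windows in all, which spread on both sides of the median. *Celsr2* had 32 CpG dinucleotides at 75.2% GC, *Ror2* 24 and *Ptk7* 14. The 3 windows of *Cfap126* had 8, 2 and 3, the 4 of *Prickle2* had 4, 5, 4 and 18, and *Prickle1* had 16 and 34.

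**Figure D2:**
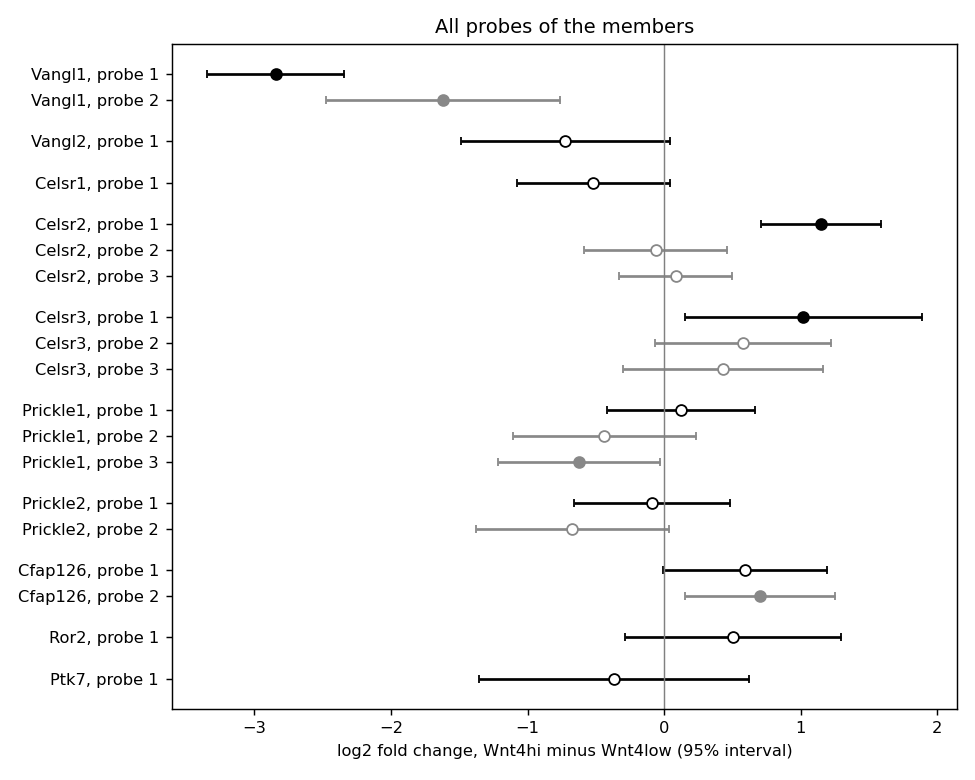
Log2 fold change (x axis, *Wnt4*hi minus *Wnt4*low) with its 95% interval from limma for each of the 19 probes, grouped by gene from the brightest probe down, with the brightest in black and the others in grey. Filled points passed the unadjusted threshold: both probes of *Vangl1*, 1 each of *Celsr2*, *Celsr3*, *Prickle1* and *Cfap126*.

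The PRICKLE proteins bind VANGL from the cytoplasm. *Prickle1* lay at 12.62, 12.38 and 12.10 on the *Wnt4*hi arrays and at 12.50, 12.33 and 11.90 on the *Wnt4*low arrays by its brightest probe. The populations were interleaved, and the log2 fold change was 0.12 (SE 0.22, 95% interval −0.42 to 0.66, unadjusted p = 0.603, limma). Another probe fell, at 10.86, 10.11 and 10.70 against 11.42, 10.96 and 11.16, with no overlap and a log2 fold change of −0.62 (SE 0.24, unadjusted p = 0.0423, adjusted p = 0.426). Its call was lost without *Wnt4*hi replicate 3 (−0.40) or 4 (−0.69) and without *Wnt4*low replicate 1 (−0.50) or 4 (−0.63). The last had −0.44 (unadjusted p = 0.160), with 1 of 3 *Wnt4*hi and 2 of 3 *Wnt4*low arrays well above background. The direction of *Prickle1* therefore differed between probes, and the brightest turned to −0.31 when the mean of the 3 was taken.

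*Prickle2* lay at 8.48, 9.02 and 9.14 on the *Wnt4*hi arrays and at 9.05, 8.69 and 9.17 on the *Wnt4*low arrays, which overlapped. The log2 fold change was −0.09 (SE 0.23, 95% interval −0.66 to 0.48, unadjusted p = 0.714, limma). The other probe, well above background on none of the *Wnt4*hi arrays and on 1 *Wnt4*low array, had −0.67 (unadjusted p = 0.0599) and overlapped.

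*Cfap126* lay at 11.92, 11.52 and 11.37 on the *Wnt4*hi arrays and at 10.84, 11.43 and 10.77 on the *Wnt4*low arrays. *Wnt4*low replicate 3 lay just above *Wnt4*hi replicate 4, so the populations overlapped. The log2 fold change was 0.59 (SE 0.25, unadjusted p = 0.0516, adjusted p = 0.459, limma). The other probe rose, at 11.14, 11.52 and 11.93 against 10.73, 10.79 and 10.95, with no overlap and a log2 fold change of 0.70 (SE 0.22, unadjusted p = 0.0198, adjusted p = 0.317). Its call was lost without *Wnt4*low replicate 1 (0.66) or 3 (0.69), while the brightest probe passed without *Wnt4*low replicate 3 (0.80, unadjusted p = 0.0140). Both cleared background on every array. The mean of both gave 0.65 (unadjusted p = 0.00329).

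*Ror2* had 1 probe, at 9.27, 8.42 and 9.30 on the *Wnt4*hi arrays and at 8.02, 8.66 and 8.80 on the *Wnt4*low arrays. *Wnt4*hi replicate 3 lay among the *Wnt4*low arrays. The log2 fold change was 0.50 (SE 0.32, unadjusted p = 0.171, adjusted p = 0.681, limma), and it did not pass. Without that array it was 0.79 (unadjusted p = 0.0350), while with each other array left out it did not pass, at 0.27 to 0.66, nor in the fit blocked on replicate number (0.13). *Ptk7* lay at 10.33, 10.13 and 9.31 against 11.02, 9.99 and 9.86, with overlap and a log2 fold change of −0.37 (SE 0.41, 95% interval −1.36 to 0.62, unadjusted p = 0.396, limma). It passed the unadjusted threshold in 0 of the 18 other settings that gave it a value, and without *Wnt4*low replicate 1, its highest array, the difference was −0.0052.

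*Wnt4*low replicate 3 recurred in these overlaps. For 7 of the 10 genes it was the *Wnt4*low array nearest to the *Wnt4*hi mean, as it was for 39.4% of all named genes. Without it 6 members passed the unadjusted threshold where 3 did with all arrays, while the share of named genes that passed was 13.5% without it and 13.2% with all arrays. Among the *Wnt4*low arrays it had the lowest summed endothelial level (45308, against 93793 and 52669 on replicates 1 and 4) and the highest summed β-cell level (292784, against 190303 and 219260). Whether these go together was not tested.

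Related genes were then set against each other within each array. The log2 intensity of *Vangl1* minus that of *Vangl2* was −1.69 ± 0.34 (SD, n = 3) on the *Wnt4*low arrays. On the *Wnt4*hi arrays, where *Vangl1* was not well above background, the measured difference was −3.81, a change of −2.12. With *Vangl1* at its bound there the difference was −3.35, a change of −1.66, and the populations did not overlap either way. For *Celsr1* minus *Celsr2* the change was −1.67 by the brightest probes, −0.91 with the mean of the probes of a gene and −1.05 in the authors' normalized values. For *Celsr1* minus *Celsr3* it was −1.54, −1.20 and −1.02 in the same order. The authors' values need not come from the brightest probe of a gene. By the brightest probes neither pair overlapped between the populations. *Celsr2* minus *Celsr3* changed by 0.13 and *Prickle1* minus *Prickle2* by 0.21, both with overlap. Over these 5 pairs the two-sided exact permutation p was 0.1 for each of the first 3 and 0.7 for the last 2 (adjusted over the 5 pairs, 0.167 and 0.7). With 3 arrays against 3 the smallest p is 0.1, so none could pass 0.05.

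**Figure D3:**
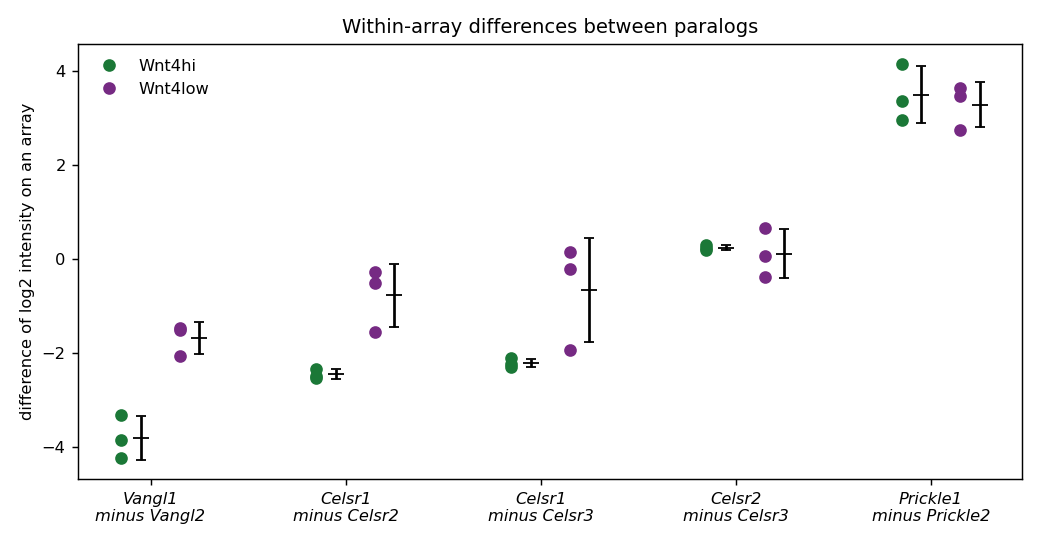
Difference in log2 intensity between the brightest probes of 2 related genes on the same array (y axis), for 5 pairs (x axis), *Wnt4*hi in green and *Wnt4*low in purple, with bars for the mean ± SD (n = 3). The *Wnt4*hi points of the first pair rest on a *Vangl1* signal at background level. The height of a pair depends on its probes, and the shift between the populations is what can be read. The populations are apart for the first 3 pairs and overlap for the last 2.

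The rest of the pathway was read from lists of 63 other PCP genes, of which 62 were measured. Without *Wnt4*, whose past expression the sort followed, 61 remained. Of these 14 fell and 4 rose, that is 18 or 29.5% against 13.2% of named genes, and 19 did not overlap (18.4% of named genes). Their median log2 fold change was −0.056. By the adjusted threshold 1 was called, the formin *Daam2*, which binds Dishevelled. It lay at 8.52, 8.13 and 8.57 on the *Wnt4*hi arrays and at 10.03, 10.61 and 10.03 on the *Wnt4*low arrays, with no overlap and a log2 fold change of −1.81 (SE 0.23, unadjusted p = 1.78e-04, adjusted p = 0.0461, limma). That call was kept in 11 of 19 other settings and was lost when any array was left out (log2 fold change −1.91 to −1.62), with a fixed replicate block (−1.96) and with the mean of its probes (−1.54). With an array left out or with that block, 0 to 3 of all probes passed the adjusted threshold.

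Among 7 ligands of the non-canonical pathway only *Wnt4* passed the unadjusted threshold, and the other 6, *Wnt5a* and *Wnt11* among them, lay between −0.12 and 0.25. Among 11 receptors and co-receptors 4 fell (7.67% of named genes did) and 1 rose (5.50% did), with a median of −0.35. The Frizzled receptors *Fzd4* and *Fzd1* fell by 2.49 (SE 0.53, unadjusted p = 0.00320) and 1.52 (SE 0.35, unadjusted p = 0.00451), the glypican *Gpc6* by 1.59 (unadjusted p = 0.0204) and *Ror1*, the paralog of *Ror2*, by 0.46 (unadjusted p = 0.0409), all without overlap. On the *Wnt4*hi arrays the *Ror1* probe was well above background on 1 of 3 and those of *Fzd1* and *Fzd4* on 2 of 3, so that their low values are partly at background. The glypican *Gpc4* rose by 1.29 (SE 0.43, unadjusted p = 0.0240). Some of these calls were lost when 1 array was left out. *Gpc6* lost it without *Wnt4*hi replicate 2 (−1.45) or *Wnt4*low replicate 3 (−1.42) or 4 (−1.18). *Gpc4* lost it without *Wnt4*hi replicate 3 (1.26) or 4 (1.16), and kept it at 0.81 without *Wnt4*low replicate 1. *Ror1* lost it without *Wnt4*hi replicate 2 (−0.38) or 3 (−0.47) or *Wnt4*low replicate 3 (−0.51) or 4 (−0.33). Several of these values stayed near those with all arrays, and why each call was lost was not tested. *Fzd4* lay at 9.27, 8.37 and 7.10 on the *Wnt4*hi and at 10.46, 10.86 and 10.91 on the *Wnt4*low arrays, a spread among *Wnt4*hi arrays that was far wider than that among *Wnt4*low arrays.

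In the cytoplasmic core, which holds the Dishevelled and Scribble groups, 1 of 11 fell (7.67% of named genes did) and 0 rose (5.50% did), with a median of −0.01. That one was *Prickle3*, at 6.22, 6.44 and 7.15 on the *Wnt4*hi arrays, none well above background, and at 8.52, 7.76 and 8.81 on the *Wnt4*low arrays, which bounds the decrease in *Wnt4*hi cells at 2.04-fold or more (unadjusted p = 0.00256, adjusted p = 0.129). In the authors' normalized values it was at 0.088. Of 8 genes of trafficking and turnover, the ubiquitin ligase *Smurf1* fell by 0.92 (unadjusted p = 0.0187) and the GTPase *Arfrp1* rose by 0.62 (unadjusted p = 0.0326), although the mean of its probes gave −0.056. *Smurf1* lost its call without *Wnt4*hi replicate 4 (−0.82) or *Wnt4*low replicate 3 (−0.87) and in the authors' normalized values (−0.54), and *Arfrp1* without *Wnt4*hi replicate 2 (0.62) or 3 (0.50) or *Wnt4*low replicate 1 (0.44) or 3 (0.63).

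Of 15 downstream effectors 7 fell and 0 rose, where 7.67% of named genes fell, and their median was −0.58. Lists were not tested against each other. They were *Daam2*, the JNK target *Jun* (−0.87, unadjusted p = 0.00277), the GTPase *Rhoa* (−0.82, unadjusted p = 0.00314), its kinase *Rock2* (−0.89, unadjusted p = 0.00434) and, named here after their values were seen, the myosin light chains *Myl9* (−2.01) and *Myl12a* (−1.34) and the GTPase *Rac1* (−0.58). The populations of all 7 were apart. Of these, *Rac1* lost its unadjusted call without *Wnt4*hi replicate 2 (−0.40) or *Wnt4*low replicate 1 (−0.48) or 4 (−0.61) and in the fit blocked on replicate number (−0.29), and the other 6 kept theirs in these fits. The kinases *Mapk8*, *Mapk9* and *Mapk10*, which encode JNK proteins, had values of −0.08, −0.64 and 0.12 and did not pass. Many of these genes are used by most cell types, and the summed endothelial and mesenchymal levels given above moved with them. Their part was not tested.

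Of the effectors linked to the cilium all 6 values were above 0, as were those of 60.4% of named genes, with a median of 0.61, but the *Intu* probe (0.26) cleared background on 1 of 3 *Wnt4*hi and 0 of 3 *Wnt4*low arrays, so its side of 0 is no measured direction. Of the 6, 2 rose, where 5.50% of named genes rose and 7.67% fell. They were *Cplane2*, by 0.86 (SE 0.21, unadjusted p = 0.00568, no overlap, but 0.14 in the authors' normalized values), and *Wdpcp*, by 1.36 (SE 0.42, unadjusted p = 0.0181, with overlap), whose probe cleared background on 2 of 3 *Wnt4*low arrays. *Wdpcp* lost its call without *Wnt4*hi replicate 2 (1.19) or 4 (1.17) and without *Wnt4*low replicate 1 (1.19) or 4 (1.16). Of 4 genes of the Fat and Dachsous system, which sets polarity beside the core, the cadherin *Fat4* fell by 1.41 (SE 0.33, unadjusted p = 0.00526) and the others lay between −0.16 and 0.46.

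Since *Cfap126* is a gene of ciliated cells, 12 genes of the motile cilium were read beside it. Of these 10 lay above 0, against 60.4% of named genes, with a median of 0.29 and *Spag6l*, which was at background on all 6 arrays, among the 10. Measured rises were found for 2, where 5.50% of named genes rose. The transcription factor *Rfx3*, known in islet endocrine cells, rose by 0.82 (unadjusted p = 0.0358) and the dynein *Dnah9* by 0.58 (unadjusted p = 0.0403). *Spag6l* also passed the unadjusted threshold (0.32, unadjusted p = 0.0467, limma), but its value is no measured change. *Foxj1*, the master regulator of motile cilia, whose probe cleared background on 2 of 3 *Wnt4*hi arrays, had −0.59 with wide spread (SE 0.76, unadjusted p = 0.463). *Dnah9* kept its call in 1 of 6 settings that leave out an array, the one without *Wnt4*hi replicate 4, and *Rfx3* in 2 of 6, those without *Wnt4*hi replicate 3 or *Wnt4*low replicate 4.

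**Figure D4:**
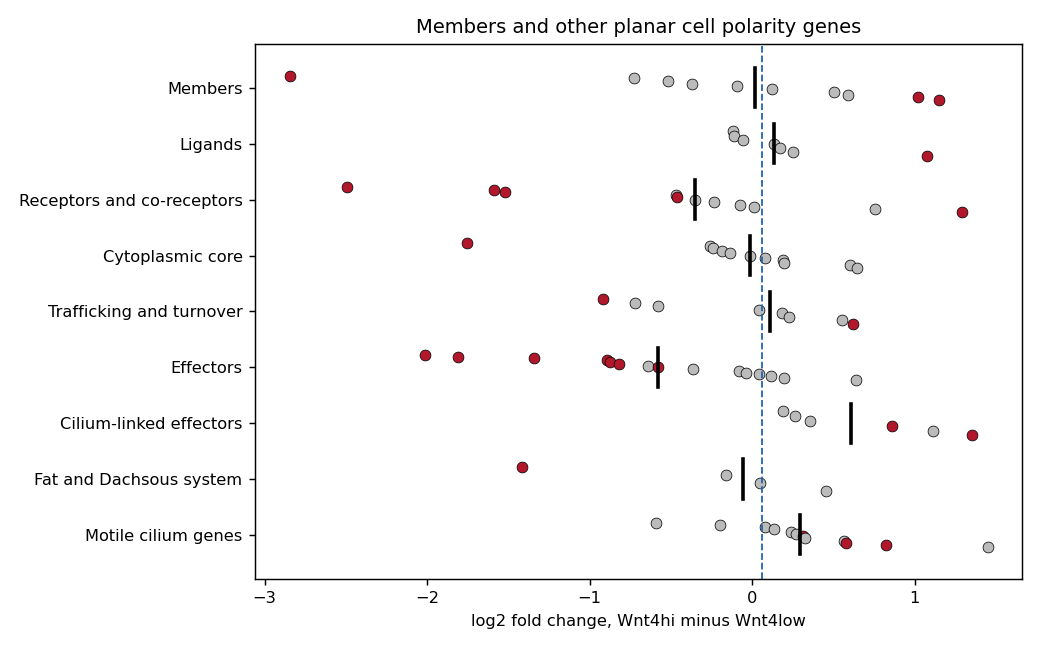
Log2 fold change (x axis, *Wnt4*hi minus *Wnt4*low) of the 10 members and of the genes of each PCP list, 1 point per gene by its brightest probe, red where it passed the unadjusted threshold. Black bars are list medians and the dashed line is the median of all named genes (0.06). The points of the effectors reach to −2.01, while those of the cilium-linked effectors all lie above 0, *Intu* among them with a signal at background on 5 of 6 arrays.

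The direction of 8 members held in every other setting that gave them a value, and that of *Prickle1* and *Prickle2*, whose values lay near 0, did not. Some settings changed only the variance model or which other probes entered, so a member's value could not change there. *Vangl1* ran from −3.72 to −2.23 and *Celsr2* between 0.39 and 1.30. *Celsr3* ran from 0.50 to 1.42, *Cfap126* from 0.35 to 0.80, *Ror2* from 0.13 to 0.79, *Celsr1* from −0.75 to −0.35, *Vangl2* from −0.995 to −0.51 and *Ptk7* from −0.58 to −0.0052.

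**Figure D5:**
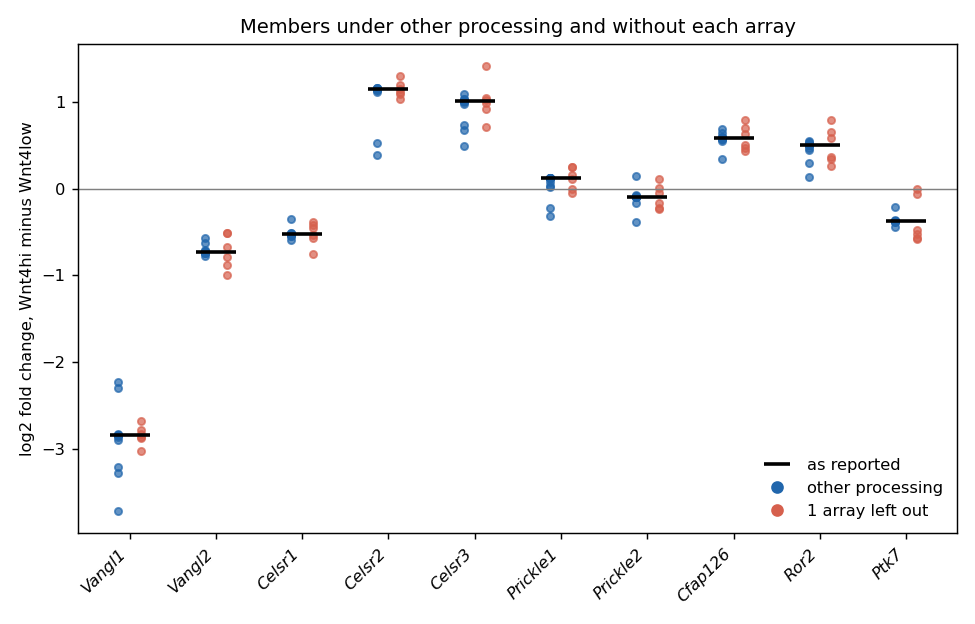
Log2 fold change (y axis, *Wnt4*hi minus *Wnt4*low) of the 10 members as reported (black bars), under other processing (blue points) and with 1 array left out (red points). *Vangl1* stays apart from all other members, and only *Prickle1* and *Prickle2* have points on both sides of 0.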

How the data were processed

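The 6 arrays (SurePrint G3 Mouse v2, Cy5) were taken by label as 3 *Wnt4*hi and 3 *Wnt4*low samples. The authors deposited, per array, scanner intensities of the spots and of their surroundings, not normalized, read with Agilent Feature Extraction (version 9.1 in the submitters' processing notes, a later one in the file headers), and a table of their normalized log2 values, 1 row per transcript, which served as an alternative. RNA was amplified before labelling, which can add noise for scarce transcripts.

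Median intensities were processed in limma 3.58.1 under R 4.3.3. Normexp with an offset of 50, quantile normalization and limma's test follow the study. Added here were the removal of control spots and of outlier or non-uniform spots (0 of the members' spots), the averaging of spots of a probe, and Benjamini-Hochberg adjustment over 56605 probes. Of 35886 probes with a RefSeq name, 32994 matched RefSeq genes of GRCm38.p6, used for names only, since the array was designed on an older build. From other PCP lists at most 4 genes each are named by smallest p, with *Wnt4* always; *Ror1*, *Wnt5a*, *Wnt11*, *Intu*, *Foxj1*, the *Mapk* and *Myl* genes and *Rac1* fall outside that rule and were named after their values were seen. Members and lists were chosen with earlier results of these data known. The calculation was tested on simulated data. Labels do not say whether pools share litters, so p-values measure the spread between these samples. Alternatives changed background correction, normalization, dim-probe filter, outlier spots, probe choice, variance model, values, replicate block and left out each array.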

Additional observations from a re-analysis of the deposited data

How the results depend on the processing

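Of 746 values of 41 genes and probes under an alternative, 733 kept their direction. Alternatives that changed only the variance model or which other probes entered could not change it. With the mean of the probes of a gene, *Prickle1* turned to −0.31, *Arfrp1* to −0.056 and the change in *Celsr2* minus *Celsr3* to −0.29. In the authors' table, *Prickle1* turned to −0.22, *Prickle3* to 0.088 and *Prickle1* minus *Prickle2* to −0.14, probes called by adjusted p numbered 406 against 270, and 3 rather than 5 other PCP genes rose. A gene was read there by its first probe by name, which need not be its brightest, so the probe can differ as well as the processing. In that table, 5 columns followed their own array (r from 0.886 to 0.908 over deviations of 32689 probes) and that of *Wnt4*hi replicate 2 did not (0.280) and may hold another array. Unadjusted calls were also lost there by *Smurf1* (−0.54) and *Arfrp1* (0.27), and *Rock2* was −0.49. Processed intensities gave *Prickle3* −2.76 and the other *Vangl1* probe −2.59. *Ror1* lost its call with them (−0.70), with median centring (−0.45) and with dim probes removed (−0.46), and *Arfrp1* with cyclic loess (0.54). The mean of its probes gave *Dnah9* 0.98. Among probes well above background on all arrays of a population, 666 were called. With arrays left out in turn, *Prickle1* ran from −0.049 to 0.26, *Prickle2* from −0.23 to 0.11, the *Celsr2* probes whose values lie near 0 from −0.26 to 0.094 (probe 2) and from −0.023 to 0.15 (probe 3), *Celsr2* minus *Celsr3* from −0.12 to 0.40 and *Prickle1* minus *Prickle2* from −0.12 to 0.48. They turned without *Wnt4*hi replicate 2 or *Wnt4*low replicate 4 (both *Prickle* genes, their difference and probe 3), *Wnt4*low replicate 1 (probe 2) and *Wnt4*low replicate 3 (*Celsr2* minus *Celsr3*). Left out in turn, 0 to 3 probes and 0 members passed the adjusted threshold, 2 to 6 members the unadjusted one, and 3 to 5 other PCP genes, *Wnt4* included, rose. The cause of these changes was not tested. The replicate numbers were shared by 2 pairs only, whose deviations correlated at −0.02 and 0.15, too few to show whether they pair the samples, and the labels do not say whether a number marks a shared pool (the pup counts of these pairs match). With the replicate block fixed, the estimate rests on these 2 pairs only, since *Wnt4*hi replicate 2 and *Wnt4*low replicate 1 have no partner. In that fit 0 probes and 0 members were called by adjusted p (6183 probes by unadjusted p), *Prickle2* turned to 0.15 and *Celsr2* probe 2 to 0.011. That block also ended the unadjusted calls of *Celsr3* (0.74), *Prickle1* probe 3 (−0.65), *Ror1* (−0.46), *Smurf1* (−0.72), *Arfrp1* (0.44), *Rac1* (−0.29), *Wdpcp* (1.03), *Rfx3* (0.62), *Dnah9* (0.43) and *Spag6l* (0.30). With the block random (consensus correlation 0.110) 47 probes were called higher and 329 lower. The paralog differences were not run with a block or the other variance model. Cyclic loess moved the median of all probes by −0.04 and the share of lower among unadjusted calls from 55.7% to 64.3%. Signal near background limits *Vangl1* and *Prickle3* to bounds and leaves *Ror1*, *Fzd1*, *Fzd4* and *Foxj1* partly at background in *Wnt4*hi cells, *Wdpcp* in *Wnt4*low cells, *Intu* on 5 of 6 arrays and *Spag6l* on all 6.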
